A study of Mus musculus with 6 samples.

Results

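Peptide digestion and amino acid transport in the intestinal epithelium was described here by 37 genes, which encode brush-border peptidases and the carriers of peptides and amino acids. They were taken by symbol from the deposited expression table and all 37 were found among its 22611 genes. RNA-seq libraries of duodenal epithelium, 1 per mouse, came from 3 *Esrra*-/- and 3 WT mice. The *Esrra*-/- mice carry a germline null allele of the estrogen-related receptor α, an orphan nuclear receptor that activates genes of mitochondrial metabolism, so the gene was lost in every tissue and not in the intestine alone. The WT mice were littermate controls. Both groups had been fed a high-fat diet for several weeks, mice of both sexes were used, and the age of these mice is not given in the sources used here. The epithelium was released with EDTA and mechanical force, and expression was given as FPKM, the sequenced fragments of a gene scaled by transcript length and by library size, so that levels of different genes can be set side by side.

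Dietary protein is cut by gastric and pancreatic proteases to oligopeptides, which peptidases anchored in the enterocyte brush border trim to amino acids, dipeptides and tripeptides. Carriers of the apical membrane take these up with sodium, protons or by exchange, and carriers of the basolateral membrane pass amino acids on to the blood. Several carriers work as pairs of a light chain, which transports, and a heavy chain, which brings it to the membrane. Other amino acid carriers serve the needs of the cell itself and are best known from proliferating cells. The 37 genes were grouped by role into 10 brush-border peptidases, 12 genes of apical uptake, 7 of basolateral exit and 8 of cell supply and sensing.

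The targeted gene was measured first. *Esrra* (mm9 chr19:6985467-6996303, minus strand) stood at 49.4, 73.5 and 104 FPKM in WT replicates 1 to 3 and at 10.4, 9.42 and 8.72 FPKM in *Esrra*-/- replicates 1 to 3. It was lower in every *Esrra*-/- library, as the labels have it (log2 fold change -2.92, SE 0.26, limma with Benjamini-Hochberg adjustment, adjusted p = 0.0215). Between 10289 and 10718 genes per library were above 1 FPKM. Transcripts of Y-linked genes summed to 27.3 to 46.7 FPKM in 4 libraries and to 0.0487 and 0.222 FPKM in replicate 3 of either genotype. Of the epithelial marker lists, that of villus enterocytes, led by *Apoa4*, had 0 of 10 tested genes called, with 9 above 0 and a median log2 fold change of 0.21. In that of Paneth cells, led by *Defa24*, 4 of 7 were called lower, namely *Lyz1*, *Defa24*, *Defa17* and *Ang4*, and its summed level was 10197 to 21522 FPKM in WT and 2009 to 9034 FPKM in *Esrra*-/-. Pancreatic acinar genes, led by *Cela1*, summed to 2.44 to 3.65 FPKM over the 6 libraries, with 8 of 13 listed at 0. The mesenchymal and endothelial list, led by *Vim*, summed to 2.58 to 7.49 FPKM.

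The levels of the genes spanned several orders of magnitude. *Anpep* ranked 33 of all 22611 genes by mean FPKM, and *Mep1b* and *Ace* ranked 149 and 155. At the other end *Slc6a14*, a broad carrier of neutral and cationic amino acids, was listed at 0 in 5 libraries and at 0.0167 FPKM in *Esrra*-/- replicate 1. A mean FPKM above 1 was the condition for testing, and 31 of the 37 genes met it. The other 6 were *Slc6a14*, *Tmem27*, *Slc1a4*, *Slc7a6*, *Slc7a11* and *Slc43a1*, and none of them passed 1.17 FPKM in any library. Each of the 3 carrier roles thus lost 2 genes to this condition, and the peptidases lost 0.

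**Figure D1:**
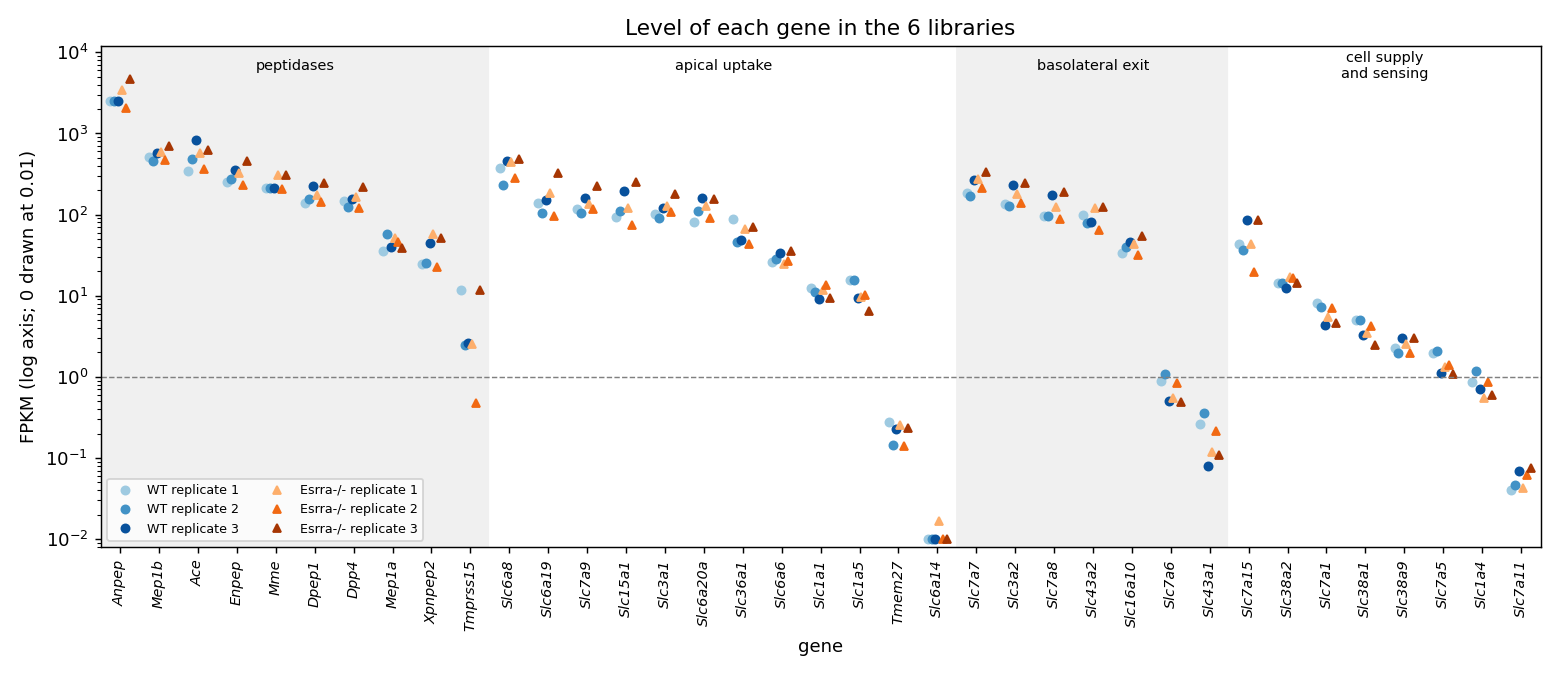
FPKM of each of the 37 genes on a log axis, by role and then by mean level, with circles for the 3 WT and triangles for the 3 *Esrra*-/- libraries and a dashed line at 1 FPKM. *Anpep* stood highest at 2087 to 4665 FPKM, and in each of the 3 carrier roles 2 genes averaged under 1 FPKM and were not tested.

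Of the 31 genes tested, 1 was lower in *Esrra*-/- and 0 were higher by the thresholds of the study, which ask for p under 0.05 before adjustment and for a fold change past 0.58 on the log2 scale. Over all 10596 genes tested, 3.28% were called lower and 1.35% higher. The gene called lower was *Slc1a5*, a sodium-dependent exchanger of neutral amino acids that brings glutamine into cells. It was also the 1 gene of 31 with an unadjusted p under 0.05, against 10.8% of all genes tested. No gene of the 31 had a limma adjusted p under 0.05, against 0.0378% of all genes tested, and in 0 of 31 were the FPKM ranges of the genotypes apart, against 17.6% of all genes tested. The median log2 fold change of *Esrra*-/- over WT was 0.12 for the 31 genes and 0.03 for all genes tested, and 23 of the 31 were above 0, as were 5754 of the 10596. Fold changes are on the scale of log2(FPKM + 0.1), with error bars from the same fit.

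**Figure D2:**
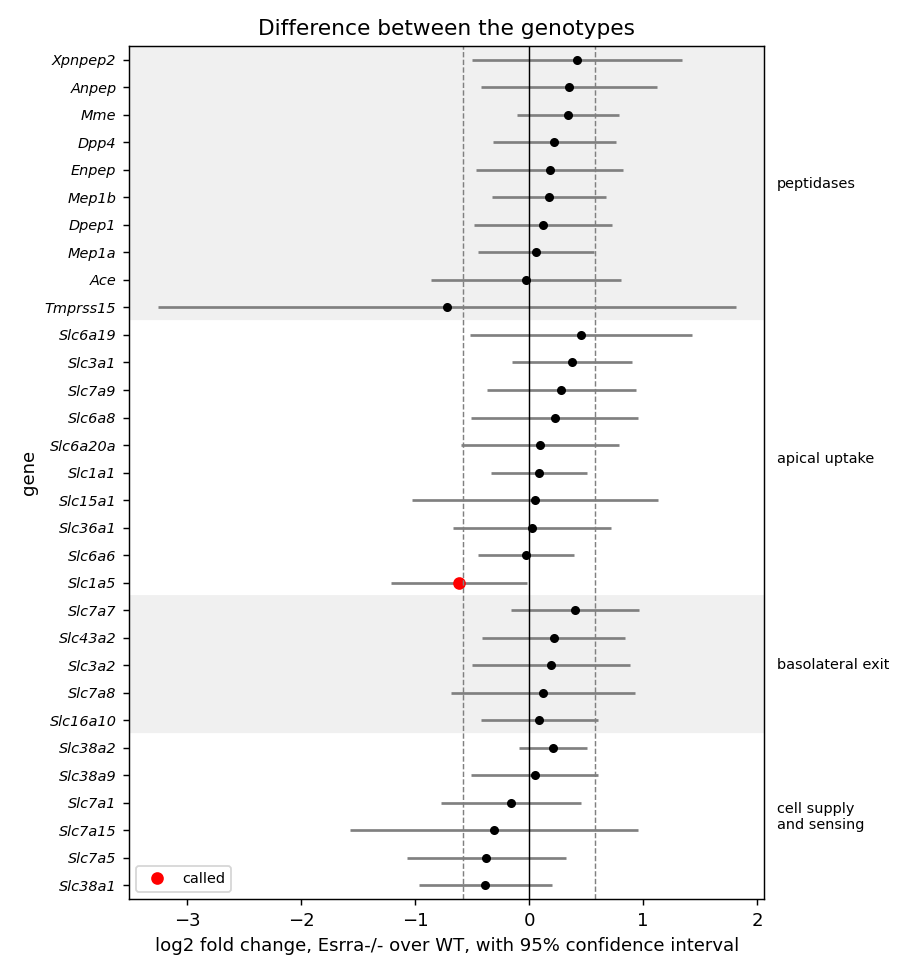
Log2 fold change of *Esrra*-/- over WT for the 31 genes tested, by role, with bars for the 95% confidence interval and dashed lines at the fold threshold of 0.58 in either direction. *Slc1a5*, in red at -0.62, has the interval that does not reach 0, and the intervals of the other 30 genes all cross 0.

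*Slc1a5* (mm9 chr7:17366695-17383623, plus strand) was at 15.5, 15.5 and 9.47 FPKM in WT replicates 1 to 3 and at 9.55, 10.2 and 6.42 FPKM in *Esrra*-/- replicates 1 to 3. WT replicate 3 lay below *Esrra*-/- replicates 1 and 2, so the genotypes overlapped. The WT mean was 13.5 ± 3.50 FPKM and the *Esrra*-/- mean 8.73 ± 2.03 FPKM (SD, n = 3). The log2 fold change was -0.62 (SE 0.25, 95% confidence interval -1.21 to -0.02, limma unadjusted p = 0.0437, adjusted p = 0.444), which fails the correction over all genes. Among the 4 libraries with Y-linked transcripts, 2 of each genotype, the log2 fold change was -0.65 and the limma adjusted p was 0.228. In replicate 3 of the genotypes, the libraries without those transcripts, the log2 difference was -0.55, a single value with no test. The call was lost with a pseudocount of 1 (log2 fold change -0.57), without the mean-variance trend (unadjusted p = 0.0568) and, with 1 library left out, without WT replicate 1 (-0.50) or 2 (-0.50) and without *Esrra*-/- replicate 1 (-0.69) or 3 (-0.41). It was kept under the other alternatives, among them without WT replicate 3 (-0.85) or *Esrra*-/- replicate 2 (-0.74), though never with an adjusted p under 0.05.

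Beside *Slc1a5* stand the markers of the crypt. The list of crypt and proliferating cell markers summed to 227 to 353 FPKM in WT and to 116 to 268 FPKM in *Esrra*-/-. Of its 10 genes, 9 had a log2 fold change below 0 with a list median of -0.59, and 1 gene, *Smoc2*, was called lower. An unadjusted p under 0.05 was reached by 3 of the 10, against 10.8% of all genes tested. The 3 were *Smoc2*, *Ccnb1* and *Pcna*, all with a lower mean in *Esrra*-/-. The lowest WT library was replicate 3 for 7 of the 10, as for *Slc1a5*. The lowest of all 6 libraries was *Esrra*-/- replicate 3 for 8 of the 10, against 18.2% of all genes tested. *Olfm4*, its most abundant gene, a marker of intestinal stem cells, was at 167, 205 and 104 FPKM in WT and at 94.7, 149 and 36.1 FPKM in *Esrra*-/-. *Olfm4* and *Slc1a5* each had their lowest level in *Esrra*-/- replicate 3. The part of the crypt fraction in the level of *Slc1a5* was not tested, and in these bulk samples fewer cells of a type and less RNA per cell cannot be told apart.

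Of the carriers that serve the cell's own supply, several had a lower mean in *Esrra*-/- without being called. *Slc38a1*, a sodium-coupled glutamine carrier, was at 5.00, 4.96 and 3.30 FPKM in WT and at 3.50, 4.18 and 2.45 FPKM in *Esrra*-/- (log2 fold change -0.39, 95% confidence interval -0.97 to 0.20). *Slc7a5*, the light chain of the large neutral amino acid exchanger of growing cells, was at 1.96, 2.08 and 1.11 FPKM in WT and at 1.32, 1.39 and 1.08 FPKM in *Esrra*-/- (log2 fold change -0.37, 95% confidence interval -1.07 to 0.32). *Slc7a1*, a carrier of cationic amino acids, ranged from 4.30 to 8.02 FPKM and had a log2 fold change of -0.16. All 3 overlapped between the genotypes, and in WT each had its lowest level in replicate 3, as *Slc1a5* did. *Slc1a4*, a close relative of *Slc1a5*, averaged 0.913 FPKM in WT and 0.664 FPKM in *Esrra*-/- and was too low to be tested.

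The remaining genes of cell supply had other patterns. *Slc38a2*, the glutamine and alanine carrier that cells raise when amino acids run short, was at 14.5, 14.1 and 12.4 FPKM in WT and at 16.8, 16.5 and 14.2 FPKM in *Esrra*-/-. Only *Esrra*-/- replicate 3 fell within the WT range, and the log2 fold change was 0.21 (95% confidence interval -0.09 to 0.51). *Slc38a9*, the lysosomal arginine sensor upstream of mTORC1, kept to 1.97 to 3.04 FPKM with a log2 fold change of 0.05. *Slc7a15* ranged from 19.8 to 85.9 FPKM with a log2 fold change of -0.31 (95% confidence interval -1.57 to 0.95) and was near 86 FPKM in replicate 3 of both genotypes, 85.9 in WT and 85.5 in *Esrra*-/-. *Slc7a11*, the cystine and glutamate exchanger, did not exceed 0.0755 FPKM in any library. The median log2 fold change of the 6 tested genes of cell supply was -0.23, with 4 below 0.

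The brush-border peptidases were the most abundant role, and all 10 were tested with 0 called. *Anpep* (mm9 chr7:86966689-86993096, minus strand), aminopeptidase N, which removes neutral residues from the N terminus, was at 2520, 2518 and 2533 FPKM in WT and at 3395, 2087 and 4665 FPKM in *Esrra*-/-. The WT libraries had a mean of 2524 ± 8.07 FPKM (SD, n = 3), whereas the *Esrra*-/- libraries lay on either side of them (3382 ± 1289 FPKM). The log2 fold change was 0.35 (95% confidence interval -0.43 to 1.12), and it was 0.077 without *Esrra*-/- replicate 3. *Anpep* alone made up 51.1% to 63.8% of the summed peptidase level in a library.

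*Mep1b*, the β subunit of the metalloprotease meprin, was at 518, 462 and 574 FPKM in WT and at 594, 468 and 708 FPKM in *Esrra*-/-. Its partner *Mep1a*, the α subunit, was at 35.4 to 58.4 FPKM, and the ratio of *Mep1b* to *Mep1a* ran from 7.91 in WT replicate 2 to 18.5 in *Esrra*-/- replicate 3. Both subunits overlapped between the genotypes, with log2 fold changes of 0.17 and 0.06. *Ace* (mm9 chr11:105829259-105851278, plus strand), the dipeptidyl carboxypeptidase known for making angiotensin II, was at 349, 485 and 824 FPKM in WT and at 581, 364 and 617 FPKM in *Esrra*-/-. Its WT libraries spanned a wider range than its *Esrra*-/- libraries, and its log2 fold change was -0.03 (95% confidence interval -0.86 to 0.80).

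*Enpep* (mm9 chr3:128972093-129035638, minus strand), aminopeptidase A, which removes acidic residues, was at 249, 271 and 352 FPKM in WT and at 322, 233 and 460 FPKM in *Esrra*-/-. The genotypes overlapped at a log2 fold change of 0.18. *Mme*, neprilysin, was at 216, 211 and 211 FPKM in WT and at 307, 209 and 304 FPKM in *Esrra*-/-, with *Esrra*-/- replicate 2 just below the WT libraries. Its log2 fold change was 0.34 (95% confidence interval -0.11 to 0.79, limma unadjusted p = 0.117). *Dpp4*, the proline-specific dipeptidyl peptidase, *Dpep1*, a dipeptidase, and *Xpnpep2*, an aminopeptidase that acts before proline, had log2 fold changes of 0.22, 0.12 and 0.42, and the intervals of all 3 crossed 0.

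*Tmprss15*, enteropeptidase, the duodenal protease that activates trypsinogen, differed most between mice. It was at 11.6, 2.47 and 2.61 FPKM in WT and at 2.57, 0.473 and 11.8 FPKM in *Esrra*-/-. The highest library was 24.9 times the lowest, the largest such span among the 31 tested genes, and each genotype held 1 library near 12 FPKM. Its log2 fold change of -0.72 therefore had an SE of 1.08 and a 95% confidence interval from -3.26 to 1.81.

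Apical uptake of peptides rests on *Slc15a1* (mm9 chr14:121858841-121904475, minus strand), the proton-coupled carrier of dipeptides and tripeptides. It was at 92.9, 111 and 195 FPKM in WT and at 120, 74.4 and 249 FPKM in *Esrra*-/-. Replicate 3 was highest in both genotypes, and the *Esrra*-/- libraries enclosed the WT range. The log2 fold change was 0.05 (95% confidence interval -1.03 to 1.13). With a term for libraries that lack Y-linked transcripts, the interval was -0.47 to 0.57.

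*Slc6a19* (mm9 chr13:73817193-73842313, minus strand), the main sodium-coupled carrier of neutral amino acids, was at 141, 106 and 153 FPKM in WT and at 184, 97.2 and 330 FPKM in *Esrra*-/-. Its *Esrra*-/- libraries enclosed the WT range, and the log2 fold change was 0.46 (95% confidence interval -0.52 to 1.43). *Tmem27*, which encodes collectrin, the partner that brings this carrier to the membrane in the kidney, was at 0.140 to 0.275 FPKM.

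Apart from *Slc1a5*, which belongs to the apical role, no apical carrier was called. *Slc6a8* (mm9 chrX:70918489-70927841, plus strand), the creatine carrier, was the most abundant of them at 374, 233 and 452 FPKM in WT and at 447, 285 and 491 FPKM in *Esrra*-/-, with a log2 fold change of 0.22. *Slc6a20a*, the proline and imino acid carrier, ranged from 81.8 to 160 FPKM with a log2 fold change of 0.10, and whether reads were shared with its paralog *Slc6a20b*, listed at 0.547 to 3.21 FPKM, was not tested. *Slc36a1*, the proton-coupled carrier of small amino acids, ranged from 43.6 to 87.6 FPKM and *Slc6a6*, the taurine carrier, from 24.8 to 35.9 FPKM, with log2 fold changes of 0.02 and -0.03. *Slc1a1*, the carrier of glutamate and aspartate, was at 12.5, 11.2 and 9.13 FPKM in WT and at 11.9, 13.6 and 9.50 FPKM in *Esrra*-/-. Like *Slc1a5*, and unlike *Slc15a1* and *Slc6a19*, it was lowest in replicate 3 of both genotypes.

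**Figure D3:**
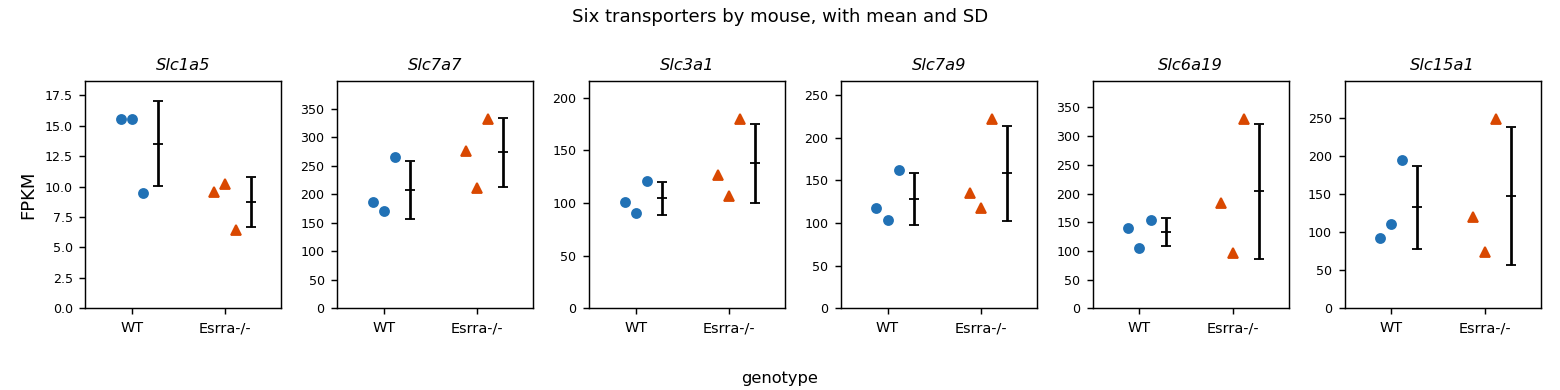
FPKM of 6 carriers in each mouse, with circles for WT, triangles for *Esrra*-/- and the mean ± SD (n = 3) beside them, each panel on its own axis from 0. For *Slc1a5* the WT mean of 13.5 exceeds the *Esrra*-/- mean of 8.73, while for the other 5 carriers the *Esrra*-/- mean is the higher one, and in all 6 the mean ± SD ranges of the genotypes overlap.

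The chains of the heteromeric carriers varied less in their ratios than in their levels. Ratios of chains that are not partners were not computed, so a low spread is not shown to be particular to partners. *Slc3a1* (mm9 chr17:85427687-85463583, plus strand), the heavy chain of the apical cystine and dibasic amino acid exchanger, was at 101, 90.6 and 121 FPKM in WT and at 126, 107 and 180 FPKM in *Esrra*-/-. Its light chain *Slc7a9* (mm9 chr7:36234056-36251055, plus strand) was at 118, 103 and 162 FPKM in WT and at 136, 118 and 222 FPKM in *Esrra*-/-. The ratio of *Slc7a9* to *Slc3a1* kept to 1.07 to 1.34 over the 6 libraries, while the level of *Slc3a1* itself varied by 1.98 times. The log2 fold changes were 0.37 (limma unadjusted p = 0.137) and 0.28 (limma unadjusted p = 0.342). *Slc3a1* overlaps *Prepl* on the opposite strand, and how many reads could belong to either gene was not tested.

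At the basolateral membrane *Slc3a2*, a heavy chain that serves many carriers, pairs with the light chains *Slc7a7* and *Slc7a8*. *Slc7a7* (mm9 chr14:54989128-55032856, minus strand), which exports dibasic amino acids, was at 187, 172 and 265 FPKM in WT and at 277, 212 and 332 FPKM in *Esrra*-/-. WT replicate 3 lay above *Esrra*-/- replicate 2, and the log2 fold change was 0.40 (95% confidence interval -0.16 to 0.96, limma unadjusted p = 0.138). *Slc3a2* was at 135, 129 and 231 FPKM in WT and at 179, 138 and 242 FPKM in *Esrra*-/-, with a log2 fold change of 0.19. The ratio of *Slc7a7* to *Slc3a2* was 1.38, 1.33 and 1.15 in WT and 1.54, 1.54 and 1.37 in *Esrra*-/-, so that WT replicate 1 just exceeded *Esrra*-/- replicate 3. Part of *Slc7a7* overlaps *Oxa1l* on the opposite strand.

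*Slc7a8*, the light chain that exchanges neutral amino acids, was at 96.6, 95.5 and 176 FPKM in WT and at 125, 88.0 and 191 FPKM in *Esrra*-/-. Its ratio to *Slc3a2* ran from 0.639 to 0.790. *Slc43a2*, which lets out branched-chain amino acids and methionine, was at 97.7, 78.7 and 80.4 FPKM in WT and at 122, 64.2 and 123 FPKM in *Esrra*-/-. *Slc16a10*, which lets out aromatic amino acids, ranged from 31.4 to 53.9 FPKM. All 5 tested genes of basolateral exit had a log2 fold change above 0, with a median of 0.19, and in all 5 *Esrra*-/- replicate 3 was the highest library. *Slc7a6* and *Slc43a1*, close relatives of *Slc7a7* and *Slc43a2*, reached at most 1.07 and 0.363 FPKM.

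The 250 bases before each transcription start of the genes were read from RefSeq (GRCm38.p6) to see what letters the genes share there. At least 1 window was found for 31 of the 37 genes, among them *Tmem27* under its present symbol *Cltrn*, and motifs were searched on both strands. A gene with several starts has several windows, and it was counted as holding a motif if any of them did. The windows of *Slc1a5*, *Mep1b*, *Slc6a6*, *Slc6a8*, *Slc7a5* and *Slc38a1* were not analysed here. TCAAGGTCA, the extended half-site that ESRRA binds, was in no window of the 31 genes, and 0.422% of 27025 genes held it. Its inner part AAGGTCA, shared by many nuclear receptors, was in 1 window, that of *Tmprss15*, and in 4.70% of all genes. CAAAGTCCA, read by HNF4, was in that of *Slc3a1* alone and in 0.451% of all genes. AGATAA, read by GATA factors, was in the windows of *Dpp4*, *Slc3a1*, *Slc7a7* and *Slc7a9* and in 11.4% of all genes. TTTATNG, read by CDX factors, was in those of *Dpp4*, *Tmprss15*, *Slc3a1* and *Slc7a15* and in 11.3% of all genes. The windows of the heavy chain *Slc3a1*, its partner *Slc7a9*, the basolateral light chain *Slc7a7* and *Tmprss15* are printed, the first 3 for their shared GATA letters and the last for its nuclear receptor letters, with every match in capitals. For a gene with several starts, a window that matches the most motifs was chosen for print. A match is a run of letters and not a measured binding site. They run 5′ to 3′ on the strand of the gene, from chr17:85028097-85028346 (plus) for *Slc3a1*, chr7:35448842-35449091 (plus, 1 of 2 starts) for *Slc7a9*, chr14:54417703-54417952 (minus, 1 of 5 starts) for *Slc7a7* and chr16:79091098-79091347 (minus) for *Tmprss15*.
Slc3a1: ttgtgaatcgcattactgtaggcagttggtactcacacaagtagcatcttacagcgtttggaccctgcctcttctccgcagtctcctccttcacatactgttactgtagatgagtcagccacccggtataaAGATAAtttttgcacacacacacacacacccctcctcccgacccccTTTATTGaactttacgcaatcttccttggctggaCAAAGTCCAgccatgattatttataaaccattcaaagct
Slc7a9: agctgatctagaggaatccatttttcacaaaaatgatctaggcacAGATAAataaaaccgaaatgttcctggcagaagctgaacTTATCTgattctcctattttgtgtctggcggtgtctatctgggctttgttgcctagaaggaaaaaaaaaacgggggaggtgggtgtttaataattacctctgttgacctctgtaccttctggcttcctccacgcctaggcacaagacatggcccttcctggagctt
Slc7a7: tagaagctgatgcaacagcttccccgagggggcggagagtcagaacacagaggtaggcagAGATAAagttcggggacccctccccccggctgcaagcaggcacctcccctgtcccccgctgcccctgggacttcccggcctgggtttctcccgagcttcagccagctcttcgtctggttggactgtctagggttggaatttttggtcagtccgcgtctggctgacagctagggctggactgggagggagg
Tmprss15: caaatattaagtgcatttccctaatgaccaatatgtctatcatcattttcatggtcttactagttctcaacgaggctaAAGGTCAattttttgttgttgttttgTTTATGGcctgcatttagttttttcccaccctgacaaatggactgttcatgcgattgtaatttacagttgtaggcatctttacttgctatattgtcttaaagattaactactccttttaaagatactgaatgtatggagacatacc

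In the window of *Slc3a1* the HNF4 letters begin 39 bases before the start, the CDX letters 73 bases before it and the GATA letters 119 bases before it. The window of *Slc7a9* holds the GATA letters on both strands, beginning 205 and 166 bases before the start. *Dpp4*, *Slc3a1*, *Slc7a7* and *Slc7a9*, the 4 genes with the GATA letters, had their highest level in *Esrra*-/- replicate 3, as did 18 of the 31 tested genes. At 4 of 31 genes with a window, against 11.4% of all genes, the letters were about as common as elsewhere. A link between the letters and the levels was not tested.

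Differences between mice of a genotype were wider for these genes than for most. The median SD within genotypes was 0.39 on the log2 scale for the 31 genes and 0.23 for all genes tested, and 29 of the 31 exceeded the latter. The median SE of a fold change was accordingly 0.27 for the 31 genes and 0.19 for all genes tested. Wide SEs were not particular to these genes. Among genes of brush-border sugar digestion and transport the SE ran from 0.11 (*Slc5a9*) to 0.64 (*Slc2a2*). Among markers of villus enterocytes it ran from 0.17 (*Apob*) to 0.38 (*Apoa1*). *Esrra*-/- replicate 3 was the highest library for 18 of 31 genes (58.1%, against 26.5% of all genes tested), and *Esrra*-/- replicate 2 the lowest for 14 of 31 (45.2%, against 14.7% of all genes tested). The summed peptidase level was 3698 FPKM in the latter and 7317 FPKM in the former, with 4209 to 4958 FPKM in WT. Without *Esrra*-/- replicate 2, *Slc6a19* (log2 fold change 0.90) and *Xpnpep2* (0.84) were called higher, and without WT replicate 3, *Slc7a7* (0.59) was called higher and *Slc7a5* (-0.64) lower. Over all genes, the former setting called 206 higher of 10560 tested, and the latter 214 higher and 401 lower of 10612. Replicate 3 was the highest library in both genotypes for 19 of 31 genes, against 28.1% of all genes tested, and the lowest in both for 6 of 31, against 20.9% of all genes tested.

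**Figure D4:**
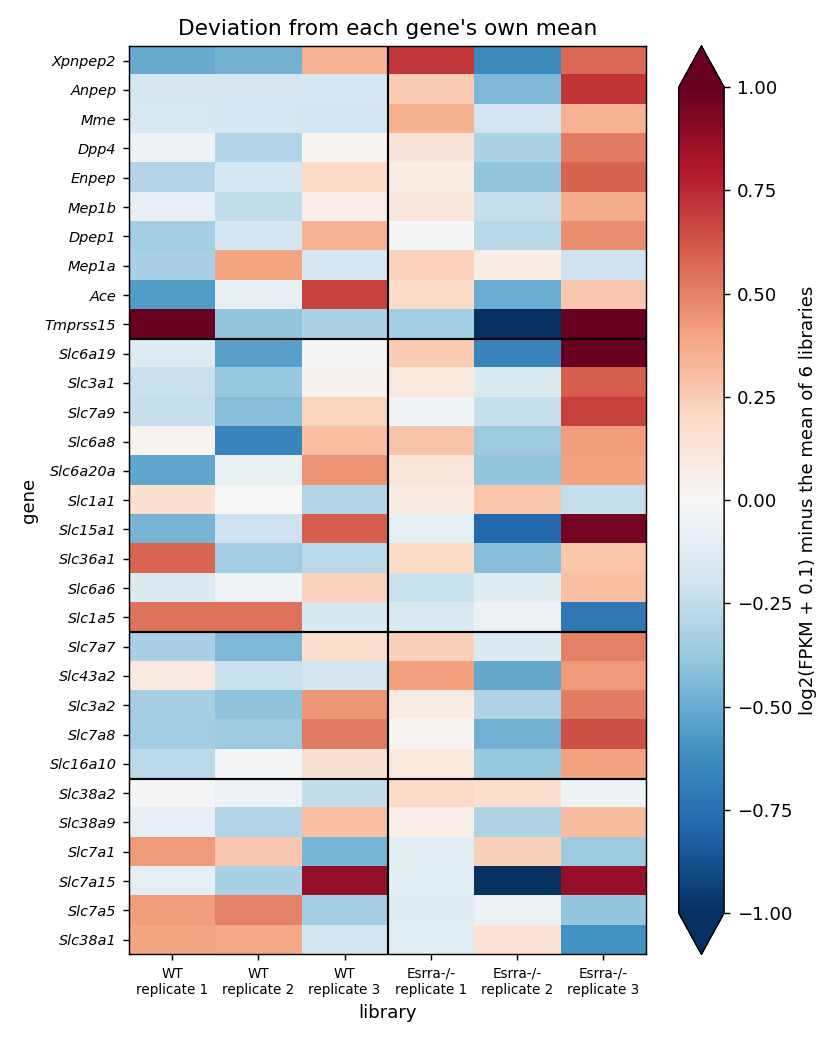
Deviation of log2(FPKM + 0.1) from each gene's mean over the 6 libraries, red above and blue below, for the 31 tested genes by role. *Esrra*-/- replicate 3 is the highest library for 18 genes and *Esrra*-/- replicate 2 the lowest for 14, while *Slc1a5*, *Slc38a1*, *Slc7a1* and *Slc7a5* are red in WT replicates 1 and 2.

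The roles did not vary alike across the libraries. The median deviation from the genes' own means was -0.36 for the peptidases, -0.30 for apical uptake and -0.38 for basolateral exit in *Esrra*-/- replicate 2 on the log2 scale. In *Esrra*-/- replicate 3 it was 0.49, 0.41 and 0.50. For cell supply and sensing it was 0.04 and -0.21 in the same libraries. Single genes departed from the median of their role. Of cell supply, *Slc7a15* stood at -1.23 and 0.87 and *Slc38a9* at -0.30 and 0.31 in these 2 libraries. Of apical uptake, *Slc1a5* stood at -0.05 and -0.72 and *Slc1a1* at 0.28 and -0.23 in them. Markers of villus enterocytes stood at -0.20 and 0.33 there, markers of crypt and proliferating cells at 0.19 and -0.80, and genes of brush-border sugar digestion and transport at -0.54 and 0.66. Their part in the levels of the peptidases and carriers was not tested.

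**Figure D5:**
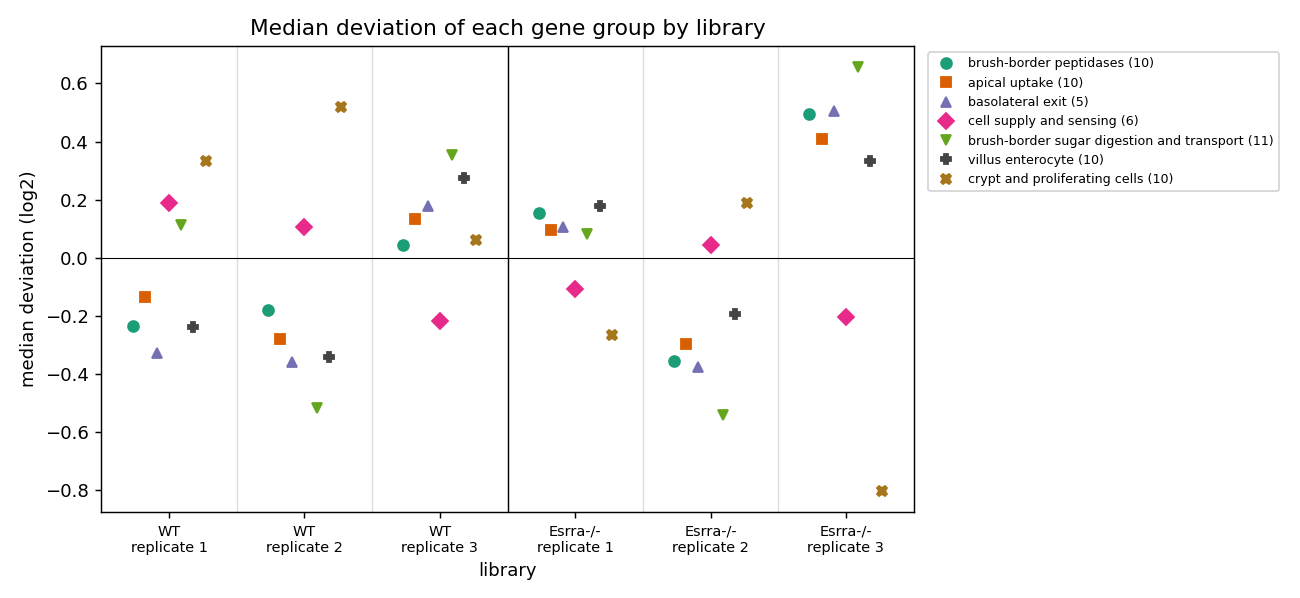
Median deviation from the mean of the 6 libraries, in log2 units, for the 4 roles, for genes of sugar digestion and transport and for markers of villus and crypt cells, with the number of genes in brackets. Peptidases, apical and basolateral carriers and sugar genes lie below 0 in *Esrra*-/- replicate 2 and above 0 in *Esrra*-/- replicate 3, where the crypt markers lie at -0.80.

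When the fit held a term for libraries that lack Y-linked transcripts, 5 of the 31 genes had an unadjusted p under 0.05, against 18.6% of all genes tested in that fit. They were *Slc1a5* (log2 fold change -0.62) and *Slc38a1* (-0.39), lower in *Esrra*-/-, and *Slc7a7* (0.40), *Slc3a1* (0.37) and *Slc38a2* (0.21), higher in *Esrra*-/-. *Slc1a5* alone passed the fold threshold, with a limma adjusted p of 0.0559, and none of the 5 had an adjusted p under 0.05.

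The neighbouring genes of the pathway were counted too. Of all genes tested, 3.28% were called lower, 1.35% were called higher and 10.8% had a limma unadjusted p under 0.05. At these shares of calls, lists this short would hold few calls or none. Of 32 other peptidases, led by *Ggt1*, 29 were tested and 0 called by limma, with 1, *Cpm*, at an unadjusted p under 0.05 and a median log2 fold change of 0.11. Of 36 other amino acid and peptide transporters, led by *Slc38a6*, 12 were tested and 0 called by limma, with 2, *Slc38a7* and *Slc38a10*, at an unadjusted p under 0.05. *Slc38a7*, a lysosomal glutamine carrier, was at 5.50, 4.88 and 7.27 FPKM in WT and at 8.01, 7.68 and 9.33 FPKM in *Esrra*-/- (log2 fold change 0.51, limma adjusted p = 0.387). *Slc38a10* was at 31.7, 32.6 and 30.1 FPKM in WT and at 46.0, 39.4 and 39.9 FPKM in *Esrra*-/- (log2 fold change 0.40, limma adjusted p = 0.343). In both, every *Esrra*-/- library lay above every WT library, though neither reached the fold threshold. The genotypes were apart, in either direction, in 3 of the 12 tested transporters and 6 of the 29 other peptidases, against 17.6% of all genes tested. *Cpm*, *Slc38a7* and *Slc38a10* were singled out after their values were seen.

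The amino acid response was read from a list of 18 genes, made up of *Atf4* and of targets of ATF4, the transcription factor that raises amino acid carriers and synthesis enzymes when amino acids run short. Of these, 14 were tested and 1 called. The call was *Atf5*, a related transcription factor, at 7.77, 10.6 and 9.10 FPKM in WT and at 15.3, 17.9 and 10.5 FPKM in *Esrra*-/- (log2 fold change 0.64, limma unadjusted p = 0.0214, adjusted p = 0.388). The lowest *Esrra*-/- library, replicate 3, lay just below the highest WT library. *Shmt2* and *Mthfd2*, mitochondrial enzymes of one-carbon metabolism, had log2 fold changes of -0.57 and -0.36 and an unadjusted p under 0.05, while the median of the 14, *Atf4* among them, was -0.15. *Atf4* was at 103 to 139 FPKM in WT and at 128 to 167 FPKM in *Esrra*-/-.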

How the data were processed

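The duodenal epithelium of 6 mice, 3 *Esrra*-/- and 3 WT, was measured by RNA-seq, and samples were grouped by their titles. The libraries came from the Illumina TruSeq kit v2, which does not mark strand. Per the submitters' processing notes and the study's methods, the authors used FastQC (0.11.3), kallisto (2.1.0) against mm9 and DESeq2 (2.2.1), and deposited FPKM values for 22611 genes. The annotation is not given in the sources used here. A deposited table of the authors' own comparison, with their mean counts, fold changes and p-values, was not used. FPKM holds no depth, so no counting interval is given and no count test was run.

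The 37 genes, their roles and the other lists were chosen with earlier results of these data known. log2(FPKM + 0.1) was tested in the 10596 genes whose mean passed 1 FPKM, using limma 3.58.1 in R 4.3.3 (lmFit, eBayes with a trend, no covariate, Benjamini-Hochberg over all genes tested). Calls needed p under 0.05 before adjustment and a fold change past 0.58 on the log2 scale, as in the study. The fit was checked on simulated data. No set test was made. The rule for naming genes took all 37, with values in every library for those called and the 5 most abundant, then called genes of other lists, the most abundant gene of each marker list and *Esrra*. Values of further genes were added after they were seen, and some items under this rule are not reported here. Positions are from GENCODE M1 on mm9 and promoters from RefSeq on GRCm38.p6. The alternatives were a pseudocount of 1, other filters, quantile and median-ratio scaling, no trend, a replicate block, Y-linked transcripts as a covariate or a condition, and each library left out. The p-values measure the spread between these mice.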

Additional observations from a re-analysis of the deposited data

How the results depend on the processing

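Over the 31 tested genes, 414 of 464 alternative values kept their direction and their side of the thresholds, 40 reversed in sign, 6 lost a call and 4 gained one, and 14 genes had no reversal. The count of genes called lower was 0 with a pseudocount of 1 and 0 without the trend, against 251 and 354 of all 10596 genes. The count at an unadjusted p under 0.05 was 3 with quantile normalization, 0 without the trend, 5 with the Y-linked covariate and 2 in the libraries with Y-linked transcripts alone. Over all genes these counts were 1319, 1109 and 1973 of 10596 and 1207 of 10665. Same-numbered libraries did not deviate together in every pair (r = 0.0116, 0.263 and 0.376), so the numbers were not taken as pairs. With the replicate block, 5 genes had an unadjusted p under 0.05, as did 2285 of all 10596 genes. Leaving out 1 library gave 0 to 2 genes called lower (252 to 533 over all genes), 0 to 2 called higher (143 to 214 over all genes), 0 to 5 at an unadjusted p under 0.05 (688 to 1303 of all genes tested) and a median log2 fold change of -0.018, without *Esrra*-/- replicate 3, to 0.33, without *Esrra*-/- replicate 2. No alternative gave any of the 31 genes an adjusted p under 0.05, while over all genes 0 to 52 had one. Other amino acid and peptide transporters had 1 call without the filter, 1 in the libraries with Y-linked transcripts and 0 to 1 with a library left out. Other peptidases had 0 to 2 with a library left out. ATF4 targets had 2 calls with quantile normalization, with median-ratio scaling, with the replicate block and in the libraries with Y-linked transcripts, and 1 to 3 with a library left out. The log2 fold change reversed for *Ace*, to 0.092 with quantile normalization and 0.16 in the libraries with Y-linked transcripts, for *Slc36a1*, to -0.047 and -0.24 in the same settings, and for *Slc15a1*, to -0.10 in the latter. Leaving out 1 library reversed further values, with ranges of -0.070 to 0.42 for *Enpep*, -0.32 to 0.30 for *Ace*, -0.085 to 0.28 for *Mep1a*, -1.81 to 0.37 for *Tmprss15*, -0.085 to 0.32 for *Dpep1*, -0.41 to 0.46 for *Slc15a1*, -0.035 to 0.23 for *Slc1a1*, -0.018 to 0.46 for *Slc3a2*, -0.19 to 0.078 for *Slc6a6*, -0.051 to 0.46 for *Slc6a8*, -0.14 to 0.34 for *Slc6a20a*, -0.42 to 0.018 for *Slc7a1*, -0.17 to 0.41 for *Slc7a8*, -0.82 to 0.23 for *Slc7a15*, -0.091 to 0.30 for *Slc16a10*, -0.14 to 0.32 for *Slc36a1* and -0.091 to 0.21 for *Slc38a9*. Without a reversal, *Anpep* ran from 0.077 to 0.66, *Slc6a19* from 0.024 to 0.90, *Slc7a9* from 0.013 to 0.47 and *Dpp4* from 0.014 to 0.43. The causes were not tested.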

Other observations

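Of 13 tested enterocyte transcription factors, led by *Hnf4a* at 166 to 194 FPKM, limma called 0, with 0 at an unadjusted p under 0.05 and a median log2 fold change of 0.15. Of 11 genes of brush-border sugar digestion and transport, limma called 0, with 1 at an unadjusted p under 0.05, *Slc5a9*, a sodium-coupled mannose carrier at 11.0 to 11.6 FPKM in WT and at 13.8 to 15.8 FPKM in *Esrra*-/- (log2 fold change 0.35, adjusted p = 0.373). *Slc5a9* was singled out after its values were seen. Of the goblet cell markers, led by *Zg16*, 1 of 8 was called, *Spink4*, which was lower. The enteroendocrine list, led by *Gip*, the tuft list, led by *Alox5ap*, and the immune list, led by *Cd74*, had 0 called of 8, 4 and 9 tested genes, each with 0 at an unadjusted p under 0.05. The immune list summed to 315 to 1431 FPKM in WT and to 731 to 2118 FPKM in *Esrra*-/-. Markers of the proximal intestine, led by *Fabp1*, summed to 8898 to 16718 FPKM and those of the distal intestine, led by *Osr2*, to 26.6 to 56.1 FPKM over the 6 libraries.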
